A study of Mus musculus with 24 samples.

Results

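The 9 genes described here mark astrocytes and carry much of their transport work: the glutamate transporters Slc1a2 and Slc1a3, the water channel Aqp4, the gap junction protein Gja1, the filament protein Gfap, the calcium-binding protein S100b, the enzymes Aldoc and Aldh1l1, and the receptor Ntsr2. They were taken by name from a list of astrocyte genes, which was drawn up with earlier results of these data known. All 9 were found among the 55359 genes of the count table. The counts came from mouse cells that the labels call oligodendrocytes, the myelin-forming cells of the brain, sorted with magnetic beads carrying an O4 antibody from the cortices of C57Bl6J pups aged 5 to 7 days. All cells were differentiated for 3 days, with triiodothyronine as the main factor, before any treatment. Experiment 1 then compared 6 wells kept for 3 days in 30 mM ethanol with 6 control wells at 0 mM, and experiment 2 compared 6 wells in 10 mM ethanol with its own 6 control wells at 0 mM. Control plates stood in a separate incubator, so an effect of ethanol and one of the incubator cannot be told apart, and each dose belongs to 1 experiment and 1 batch, so dose, experiment and batch cannot be told apart either.

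Astrocytes take up glutamate released at synapses through the transporters encoded by Slc1a2 and Slc1a3, move water and potassium through channels at their endfeet, and share small molecules through gap junctions built from connexins such as Gja1. Gfap forms their intermediate filaments and is widely read as a marker of astrocyte reactivity. Slc1a3 appears early, in radial glia and young astrocytes, whereas Slc1a2 is known for rising as astrocytes mature.

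Transcripts were read by 3′ tag sequencing, which gives about 1 tag per transcript whatever its length, so levels of different genes can be set side by side. Values are CPM, the counts scaled to a well's total count. Totals ran from 1184609 to 1817028 counts per well, and 3 counts, taken as the floor of detection for counting error only, were worth 1.65 to 2.53 CPM. All 60 pairs of wells within a group differed by more than counting noise (chi-square divided by its degrees of freedom, 1.08 to 3.14). The titles call the wells biological replicates, but whether they came from separate litters is not stated, so p-values measure the spread between these wells, which may be technical. Against the oligodendrocyte label, 12 oligodendrocyte genes summed to 5479 ± 303 CPM (SD, n = 6) in the controls of experiment 1 and to 5631 ± 462 CPM (SD, n = 6) in those of experiment 2. The 9 astrocyte genes summed to 4552 ± 253 CPM and 4918 ± 133 CPM (SD, n = 6) in the same wells. Both cell types' markers were therefore present in every group, and in bulk RNA more cells of a type and more RNA per cell cannot be told apart.

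The promoter windows of 4 genes with unlike test results are shown. Gfap, Slc1a2 and Ntsr2 rose at 30 mM ethanol, and Slc1a3 did not pass the test. Whether the responses of these genes differ from each other was not tested. Each window holds 250 bases before and 50 bases after the RefSeq start, taken from assembly GRCm38.p6 and printed 5′ to 3′ on the gene's own strand. The Gfap window lies at chr11:102897151-102897450 on the minus strand, that of Slc1a2 at chr2:102706188-102706487 on the plus strand, that of Slc1a3 at chr15:8710758-8711057 on the minus strand and that of Ntsr2 at chr12:16653220-16653519 on the plus strand. Capitals mark matches, on either strand, to the STAT motif TTCNNNGAA or to TTGGC, the core that nuclear factor I binds.
Gfap: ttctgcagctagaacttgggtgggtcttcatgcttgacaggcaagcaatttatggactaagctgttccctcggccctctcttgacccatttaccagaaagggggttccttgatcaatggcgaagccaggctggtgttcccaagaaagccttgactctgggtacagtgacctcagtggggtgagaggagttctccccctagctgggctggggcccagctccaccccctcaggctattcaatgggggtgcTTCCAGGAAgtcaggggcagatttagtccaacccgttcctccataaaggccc
Slc1a2: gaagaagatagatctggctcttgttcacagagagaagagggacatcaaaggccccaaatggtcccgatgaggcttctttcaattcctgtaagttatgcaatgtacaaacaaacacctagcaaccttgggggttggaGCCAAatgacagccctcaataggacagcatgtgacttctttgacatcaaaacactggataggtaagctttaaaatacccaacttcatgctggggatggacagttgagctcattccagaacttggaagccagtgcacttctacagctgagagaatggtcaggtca
Slc1a3: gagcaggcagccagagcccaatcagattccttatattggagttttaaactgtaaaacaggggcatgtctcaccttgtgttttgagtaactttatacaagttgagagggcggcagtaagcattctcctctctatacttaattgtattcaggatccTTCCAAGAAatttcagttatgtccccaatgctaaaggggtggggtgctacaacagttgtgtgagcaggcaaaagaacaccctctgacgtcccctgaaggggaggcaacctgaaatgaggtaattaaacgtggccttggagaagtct
Ntsr2: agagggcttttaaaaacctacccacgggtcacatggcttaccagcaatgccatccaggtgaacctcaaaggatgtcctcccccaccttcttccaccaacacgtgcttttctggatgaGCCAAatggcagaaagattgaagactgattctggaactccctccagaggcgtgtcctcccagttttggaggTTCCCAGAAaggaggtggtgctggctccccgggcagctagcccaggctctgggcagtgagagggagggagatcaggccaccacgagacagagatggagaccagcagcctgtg
The STAT motif begins 2 bases before the start of Gfap, 96 bases before that of Slc1a3 and 62 bases before that of Ntsr2. It was not found in the Slc1a2 window, which holds a nuclear factor I core 114 bases before the start. Ntsr2 also holds such a core 133 bases before its start. Windows were read for 8 of the 9 genes, and none was read for Aqp4. The search left out windows of 1 chromosome, so the 8 does not show that Aqp4 lacks a window. Aldoc had 2 windows, 1 with 2 STAT matches and the other with a nuclear factor I core. Of all 32851 windows of this length, 8.30% hold the STAT motif and 46.7% the nuclear factor I core, so the latter is a common finding. The AP-1 motif TGANTCA, held by 7.81% of windows, was found in the Gja1 window, 19 bases before the start. Among the genes that did not pass at 30 mM, the S100b window held 4 nuclear factor I cores and no STAT match. The Aldh1l1 window held none of these motifs. These matches describe the letters in the windows and do not show that a factor binds there.

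At 30 mM ethanol, 6 of the 9 genes rose against the controls of experiment 1, none fell and 3 did not pass the test. The test was edgeR's quasi-likelihood test over all 13235 genes, with an adjusted p under 0.05 as the threshold. Of all genes tested, 3.02% rose and 6.65% fell. The glutamate transporter Slc1a2, the water channel Aqp4 and the gap junction gene Gja1 each rose by between 0.51 and 0.62 on the log2 scale, Ntsr2 by 1.03, Gfap by 0.42 and Aldoc by 0.35. The median change of the 9 genes was 0.42 on the log2 scale, against 0.02 for all genes tested. The wells of the groups did not overlap for 5 of the 9, as for 4.98% of all genes tested.

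**Figure D1:**
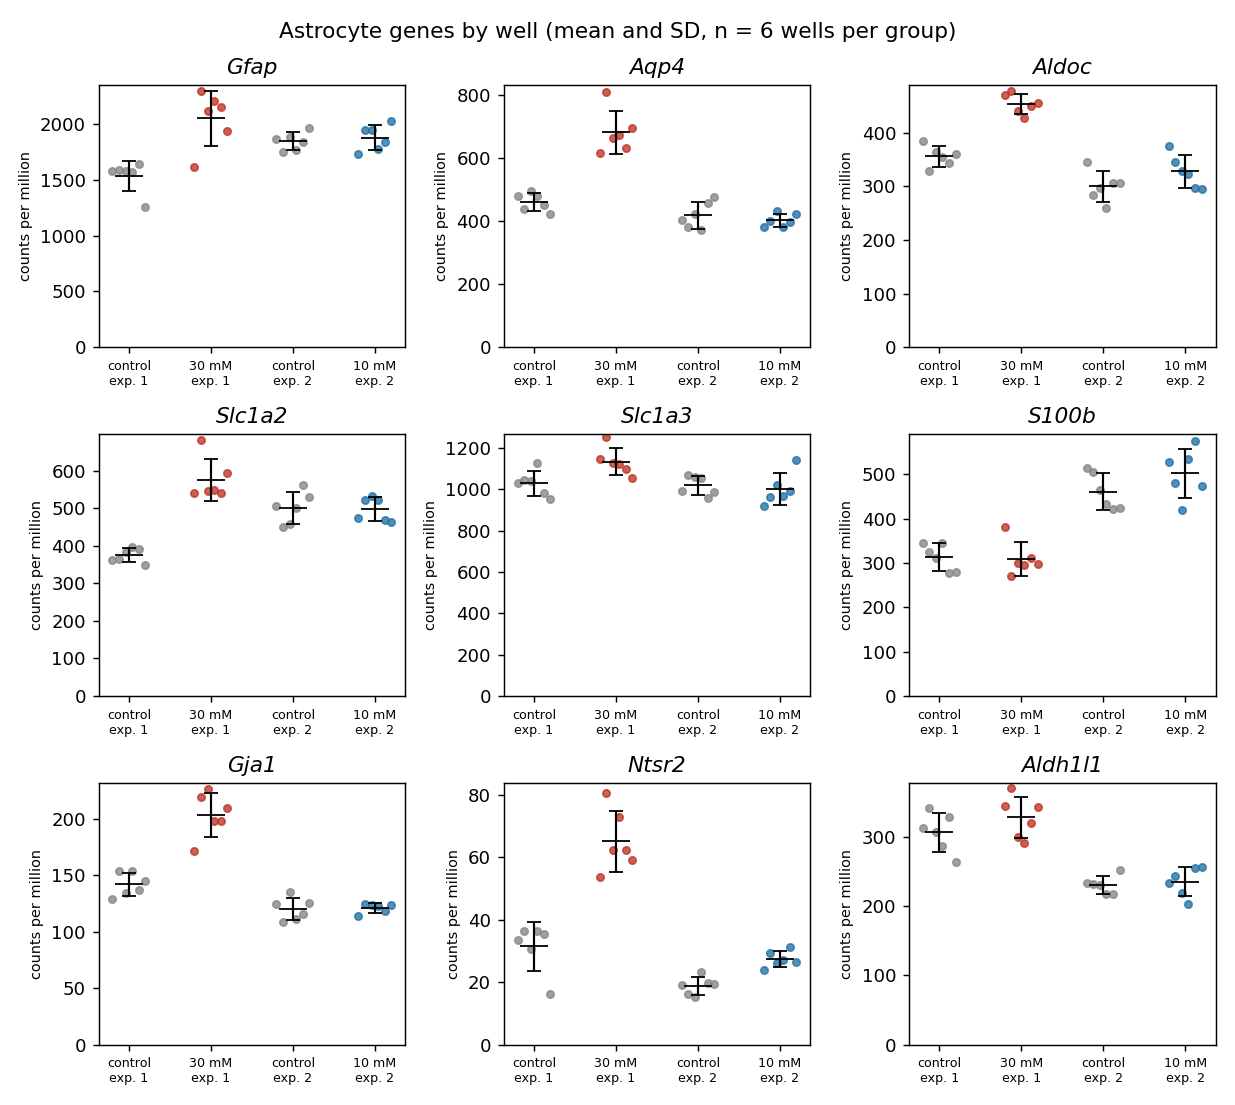
Each panel plots the CPM of 1 astrocyte gene in every well (points) of the 4 groups, with the group mean and SD (bars). Aqp4, Aldoc, Slc1a2, Gja1 and Ntsr2 have all 6 wells at 30 mM above all 6 controls of experiment 1.

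Slc1a2 encodes GLT-1, the main glutamate transporter of the mature forebrain. Its lowest, median and highest well held 540 CPM, 547 CPM and 681 CPM at 30 mM, against 349 CPM, 375 CPM and 396 CPM in the controls of experiment 1. Every ethanol well lay above every control well, and the mean rose from 375 ± 18.1 CPM to 575 ± 56.0 CPM (SD, n = 6). The log2 change was 0.62 (SE 0.0663, edgeR adjusted p = 4.31e-09).

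Slc1a3 encodes GLAST, the other astrocyte glutamate transporter. It held 1053 CPM, 1127 CPM and 1253 CPM in its lowest, median and highest ethanol well, against 954 CPM, 1034 CPM and 1130 CPM in the controls. The ranges overlapped only through control replicate 4, at 1130 CPM. The other control wells reached at most 1046 CPM, below the lowest ethanol well. Its log2 difference was 0.14 (SE 0.0595, edgeR adjusted p = 0.141), which did not pass the test.

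The ratio of the transporters within a well does not depend on how libraries are scaled. The log2 ratio of Slc1a2 to Slc1a3 was -1.46 ± 0.07 (SD, n = 6) in the controls of experiment 1 and -0.98 ± 0.11 (SD, n = 6) at 30 mM. The lowest ethanol well, at -1.09, lay above the highest control well, at -1.33. In experiment 2 the ratio was -1.03 ± 0.18 in the controls and -1.01 ± 0.16 at 10 mM (SD, n = 6), both near the level of the 30 mM wells. These ratios are given as a description, without a test.

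**Figure D2:**
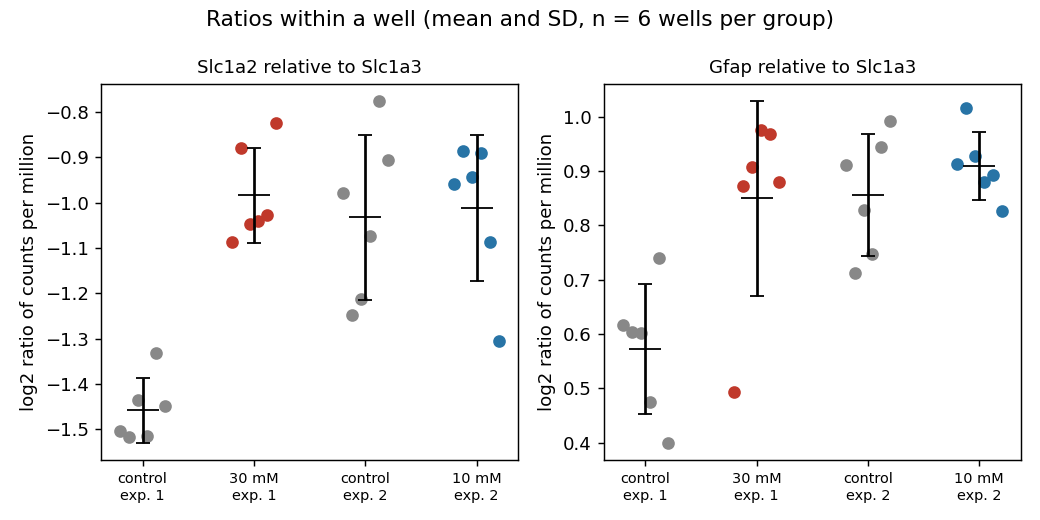
The log2 ratio of Slc1a2 to Slc1a3 and of Gfap to Slc1a3 is plotted for every well (points) by group, with the mean and SD (bars). For Slc1a2 over Slc1a3 the controls of experiment 1 stand lowest, at a mean of -1.46, and the other 3 groups have means from -1.03 to -0.98.

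Aqp4 encodes the water channel that gathers at astrocyte endfeet around vessels. It held 616 CPM, 669 CPM and 810.4 CPM in its lowest, median and highest well at 30 mM, against 422 CPM, 464 CPM and 494 CPM in the controls. The groups did not overlap, with a log2 change of 0.56 (SE 0.0668, edgeR adjusted p = 4.97e-08).

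Gja1, the gap junction connexin of astrocytes, held 171 CPM, 204 CPM and 226 CPM at 30 mM, against 129 CPM, 141 CPM and 154 CPM in the controls, again as lowest, median and highest well. All ethanol wells were above all control wells. The log2 change was 0.51 (SE 0.0751, edgeR adjusted p = 3.41e-06).

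Gfap was the most abundant of the 9 in every group. Its wells ran from 1614 CPM through a median of 2135 CPM to 2295 CPM at 30 mM, and from 1258 CPM through 1578 CPM to 1642 CPM in the controls. The groups overlapped because the lowest ethanol well, replicate 1, stood below the highest control well. The log2 change of 0.42 (SE 0.0700, edgeR adjusted p = 4.26e-05) passed the test, and it remained between 0.36 and 0.47 under the 21 alternatives, including those that left out that well.

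S100b, a calcium-binding protein of astrocytes that oligodendrocyte lineage cells also make, did not pass the test. It held 270.1 CPM, 299 CPM and 381 CPM at 30 mM and 276 CPM, 318 CPM and 346 CPM in the controls. Both groups covered much the same range, with a log2 difference of -0.02 (SE 0.0738, edgeR adjusted p = 0.886). Its highest well was ethanol replicate 1, which among the 30 mM wells also had the lowest Gfap and the highest summed oligodendrocyte genes, at 11227 CPM. The annotated span of S100b overlaps that of Dip2a on the opposite strand, with a mean of 68.8 counts per well for Dip2a against 567 for S100b, and whether counting used strand is not given in the sources used here.

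Aldoc, the aldolase isoform of brain glycolysis, held 427 CPM, 453 CPM and 478 CPM at 30 mM, against 328 CPM, 358 CPM and 385 CPM in the controls. The groups did not overlap, and the log2 change was 0.35 (SE 0.0611, edgeR adjusted p = 7.41e-05). Aldh1l1, a folate enzyme used as a broad astrocyte marker, differed by 0.10 (SE 0.0713, edgeR adjusted p = 0.420) and did not pass the test. Its wells overlapped, with 291 CPM, 332 CPM and 370.1 CPM at 30 mM and 264 CPM, 309.7 CPM and 342 CPM in the controls.

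Ntsr2, a neurotensin receptor that astrocytes express, had the lowest level and the largest fold of the 9. It held 53.9 CPM, 62.3 CPM and 80.7 CPM at 30 mM, against 16.3 CPM, 34.5 CPM and 36.5 CPM in the controls. The lowest ethanol well was above the highest control well. The fold was 2.04, a log2 change of 1.03 (SE 0.132, edgeR adjusted p = 2.42e-07). Its raw count ranged from 20 to 130 per well over all 24 wells, above the floor in each.

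At 10 mM ethanol none of the 9 genes passed edgeR's test against the controls of experiment 2, where 0.657% of 13538 genes did. DESeq2 and limma voom also called 0 of the 9. At an unadjusted p under 0.05 there were 3, Aldoc, S100b and Ntsr2, all higher in ethanol, where 10.1% of the 13538 genes were under it. The median difference of the 9 was 0.03 on the log2 scale, and 6 of the 9 differences were positive.

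Ntsr2 stood nearest to the threshold. It held 23.9 CPM, 26.9 CPM and 31.4 CPM in its lowest, median and highest well at 10 mM, against 15.4 CPM, 19.3 CPM and 23.2 CPM in the controls of experiment 2. All 6 ethanol wells lay above all 6 control wells, a separation seen in 0.894% of all genes tested and in 1 of the 9. The log2 difference was 0.54 (SE 0.149), with an edgeR adjusted p of 0.0616, which ranged from 0.0517 to 0.177 over the alternatives that gave one.

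The glutamate transporters showed close means in experiment 2. Slc1a2 stood at 497 ± 32.0 CPM at 10 mM and 500.4 ± 42.1 CPM in the controls (SD, n = 6), and Slc1a3 at 1002 ± 78.1 CPM and 1021 ± 45.5 CPM. Their log2 differences were -0.01 (edgeR adjusted p = 0.985) and -0.02 (edgeR adjusted p = 0.942). For the channel genes the wells of both groups also overlapped. Aqp4 was at 403 ± 20.8 CPM against 419 ± 42.3 CPM, a difference of -0.05 (edgeR adjusted p = 0.838), and Gja1 at 121 ± 4.32 CPM against 120.2 ± 9.89 CPM, a difference of 0.02 (edgeR adjusted p = 0.965).

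Gfap was at 1879.6 ± 114 CPM at 10 mM and 1848 ± 80.4 CPM in the controls of experiment 2 (SD, n = 6), a log2 difference of 0.03 (edgeR adjusted p = 0.899). S100b was at 502 ± 55.0 CPM against 461 ± 41.6 CPM, a difference of 0.13 (edgeR adjusted p = 0.467). Aldoc was at 328 ± 30.3 CPM against 299.7 ± 28.6 CPM, also a difference of 0.13 (edgeR adjusted p = 0.472). Aldh1l1 was at 235 ± 21.0 CPM against 230.4 ± 12.6 CPM, a difference of 0.03 (edgeR adjusted p = 0.922). The wells of both groups overlapped for these 4 genes.

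An interaction term over the 24 wells asked whether the responses differed, as the change at 30 mM minus the change at 10 mM. It passed for 4 of the 9 genes, where 3.28% of 14655 genes passed. The change was larger at 30 mM by a log2 value of 0.61 for Slc1a2 (SE 0.0910, edgeR adjusted p = 3.21e-06) and by 0.60 for Aqp4 (SE 0.0944, edgeR adjusted p = 1.13e-05). It was larger by 0.48 for Gja1 (SE 0.106, edgeR adjusted p = 0.00287) and by 0.37 for Gfap (SE 0.0919, edgeR adjusted p = 0.0103). The call for Gfap was lost without a filter on low counts (0.32, edgeR adjusted p = 0.0852).

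The other 5 genes did not pass the test of the difference between the doses. Ntsr2 differed by 0.47 (edgeR adjusted p = 0.213), so a larger response at 30 mM was not shown for the gene with the largest fold. Aldoc differed by 0.21 (edgeR adjusted p = 0.211) and passed under upper quartile scaling (0.28, edgeR adjusted p = 0.0422). Slc1a3 differed by 0.15 (edgeR adjusted p = 0.380), Aldh1l1 by 0.06 (edgeR adjusted p = 0.820) and S100b by -0.16 (edgeR adjusted p = 0.431).

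**Figure D3:**
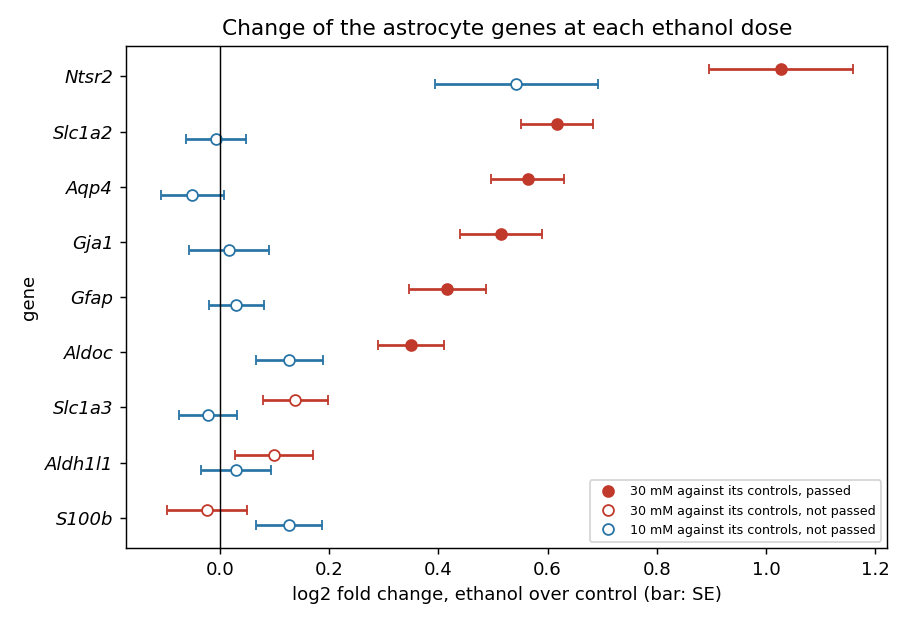
The log2 fold change of each astrocyte gene is plotted on the horizontal axis for 30 mM and for 10 mM, each against its own controls, with a bar of 1 SE from edgeR. Filled points passed the test: 6 genes at 30 mM, all to the right of 0, and none at 10 mM.

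The starting levels differed between the experiments. With no ethanol in either group, the controls of experiment 1 were higher than those of experiment 2 for 5 of the 9 genes and lower for 3, and 1 did not pass edgeR's test. Of all 13479 genes tested, 21.3% were higher and 22.3% lower. Wells did not overlap for 4 of the 9, as for 18.9% of all genes. These differences share the controls of experiment 1 with the changes at 30 mM and with the interaction, so the values are only set side by side.

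Gfap, Slc1a2 and S100b were lower in the controls of experiment 1. Gfap stood at 1536 ± 138 CPM there and at 1848 ± 80.4 CPM in the controls of experiment 2 (SD, n = 6), a log2 difference of -0.22 (edgeR adjusted p = 0.000847). Slc1a2 stood at 375 ± 18.1 CPM and 500.4 ± 42.1 CPM, a difference of -0.37 (edgeR adjusted p = 1.45e-07). S100b stood at 314 ± 30.9 CPM and 461 ± 41.6 CPM, a difference of -0.51 (edgeR adjusted p = 1.09e-10). For each of the 3, all wells of experiment 1 lay below all wells of experiment 2.

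Ntsr2, Aldh1l1, Aldoc, Gja1 and Aqp4 were higher in the controls of experiment 1. The log2 difference was 0.81 for Ntsr2 (edgeR adjusted p = 1.48e-05), 0.46 for Aldh1l1 (edgeR adjusted p = 4.18e-09), and 0.29 for both Aldoc (edgeR adjusted p = 5.48e-05) and Gja1 (edgeR adjusted p = 0.000962). For Aqp4 it was 0.19 (edgeR adjusted p = 0.00827), a call that was lost under upper quartile scaling (0.12, edgeR adjusted p = 0.0621). Slc1a3 differed by 0.06 (edgeR adjusted p = 0.391). The genes that rose at 30 mM all had their highest mean of the 4 groups in the 30 mM wells. Among them, Aqp4, Gja1, Ntsr2 and Aldoc started from controls above those of experiment 2. Slc1a2 and Gfap started below, and their means at 30 mM, 575 CPM and 2055 CPM, were above the control means of experiment 2, 500.4 CPM and 1848 CPM. The wells of these groups overlapped for both genes. Slc1a2 ran from 540 to 681 CPM against 449 to 561 CPM, and Gfap from 1614 to 2295 CPM against 1749 to 1969 CPM.

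The order of levels was fixed at its ends and varied in the middle. In every group Gfap was highest and Slc1a3 next, without overlap between their wells, and Gja1 and then Ntsr2 were lowest. In the wells at 30 mM the order between them was Aqp4, Slc1a2, Aldoc, Aldh1l1 and S100b, where the neighbours Aqp4 and Slc1a2 overlapped, as did Aldh1l1 and S100b. In the controls of experiment 1 it was Aqp4, Slc1a2, Aldoc, S100b and Aldh1l1, with overlaps from Slc1a2 through to Aldh1l1. In experiment 2 S100b stood near the top of this middle group, ahead of Slc1a2 and Aqp4 at 10 mM and between them in the controls, and Aldoc and Aldh1l1 came last. In both groups of experiment 2 the wells of S100b overlapped those of Slc1a2 and of Aqp4.

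Further astrocyte genes were read from 3 lists. Over all genes tested at 30 mM, 3.02% rose and 6.65% fell. Of 26 genes of transport and metabolism, 24 were tested at 30 mM, of which 5 rose, 1 fell and 18 did not pass, with a median log2 change of 0.11. Slc6a11, a GABA transporter, rose by 0.54 (edgeR adjusted p = 0.000218), Gldc, an enzyme of glycine breakdown, by 0.38 (edgeR adjusted p = 0.0139), and Atp1b2, a sodium pump subunit, also by 0.38 (edgeR adjusted p = 0.000508). Pla2g7, a phospholipase, rose by 0.25 (edgeR adjusted p = 0.0454). The fifth was Glul, glutamine synthetase, which turns the glutamate taken up by the transporters into glutamine. It rose from 676 ± 27.1 CPM to 791 ± 32.1 CPM (SD, n = 6), by 0.22 on the log2 scale (edgeR adjusted p = 0.00710), and was the 1 gene of this list to pass for the difference between the doses (0.29, edgeR adjusted p = 0.0276). The potassium channel gene Kcnj16 fell from 18.5 ± 2.48 CPM to 10.7 ± 2.78 CPM (-0.77, edgeR adjusted p = 0.0108).

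Of 26 regulators, receptors and secreted proteins, all tested at 30 mM, 4 rose, 1 fell and 21 did not pass, with a median of 0.10. Over all genes tested, 3.02% rose and 6.65% fell. Clu, the chaperone clusterin, rose by 0.27 (edgeR adjusted p = 0.00126), Mmd2 by 0.25 (edgeR adjusted p = 0.00663) and Cst3, the protease inhibitor cystatin C, by 0.18 (edgeR adjusted p = 0.0317). Agt, angiotensinogen, rose by 0.98 (edgeR adjusted p = 0.0335) from a low level of 5.25 ± 2.67 CPM to 10.5 ± 3.38 CPM (SD, n = 6). The transcription factor gene Nfib fell by 0.29 (edgeR adjusted p = 0.00078). Sox9, a regulator of astrocyte fate, was at 292 ± 32.6 CPM against 254 ± 14.9 CPM and did not pass (0.20, edgeR adjusted p = 0.0654).

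Genes known from reactive astrocytes formed the third list. Of 11 tested at 30 mM, 8 rose, 1 fell and 2 did not pass, with a median of 0.30. Over all genes tested, 3.02% rose and 6.65% fell. Serpina3n, a protease inhibitor, rose from 2379 ± 114 CPM to 3340 ± 96.1 CPM (SD, n = 6), by 0.49 on the log2 scale (edgeR adjusted p = 9.20e-09). Lcn2, lipocalin, rose from 4497 ± 243 CPM to 5883 ± 515 CPM, by 0.39 (edgeR adjusted p = 7.28e-06), and was more abundant than Gfap. Steap4, a metalloreductase, rose by 0.51 (edgeR adjusted p = 0.000284) and Osmr, a cytokine receptor subunit, by 0.38 (edgeR adjusted p = 0.0119). The heat shock gene Hspb1 fell by 0.52 (edgeR adjusted p = 0.0285), and the filament gene Vim, which partners Gfap, did not pass (-0.17, edgeR adjusted p = 0.0641). For the difference between the doses 5 of the 11 passed, where 3.28% of all genes tested did.

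At 10 mM none of the 23, 25 and 11 tested genes of these lists passed, by edgeR, DESeq2 or limma voom, with medians of 0.02, 0.03 and -0.11. With edgeR 0.657% of all genes tested passed at 10 mM. At an unadjusted p under 0.05 there were 3, 4 and 4, where 10.1% of all genes tested were under it. Between the control groups, the controls of experiment 1 were higher for 15 and lower for 3 of 24 transport and metabolism genes, and higher for 17 and lower for 0 of 25 regulators, receptors and secreted proteins. Of the 11 reactive genes 4 were higher and 4 lower. Over all genes tested between the control groups, 21.3% were higher and 22.3% lower.

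**Figure D4:**
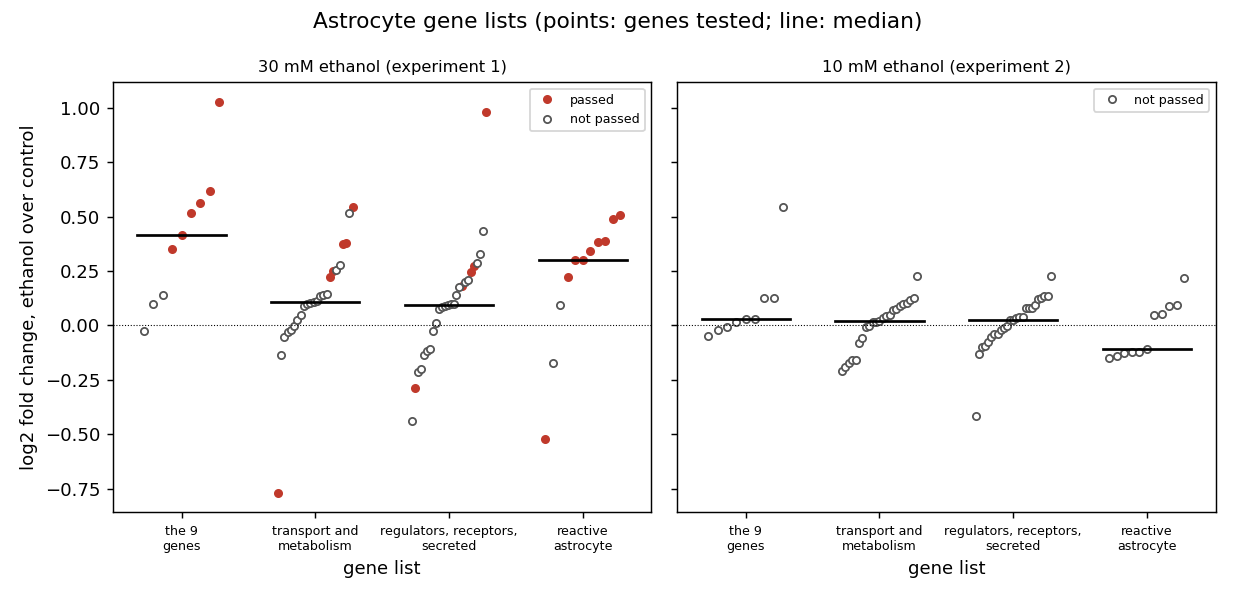
The log2 fold change of every tested gene of the 3 further astrocyte lists and of the 9 genes (points) is plotted for both doses, with the median of each list (line). At 30 mM the medians run from 0.10 to 0.42 and at 10 mM from -0.11 to 0.03.

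The 9 genes varied together only in part within groups. After the group mean of log2 CPM was taken from each well, 26 of the 36 pairs of genes had a positive Pearson r over 24 wells, with a median of 0.21. These wells share their libraries and sequencing depth, and r is given as a description. Gfap and Ntsr2 had an r of 0.68, Aqp4 and Slc1a2 of 0.67, and Gfap and Aqp4 of 0.61. Without the pair of wells farthest from their group means, these became 0.48, 0.53 and 0.51. S100b ran the other way, with -0.47 against Slc1a2, -0.44 against Aqp4 and -0.41 against Gfap, and -0.48, -0.47 and -0.59 without those wells. Against the mean of the other 8 genes, Aqp4 had 0.65, Gfap 0.61, Aldoc -0.02 and S100b -0.30.

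Those wells were replicate 2 at 30 mM, where the 9 genes were high, with a mean standardised deviation of 1.27, and replicate 6 of the controls of experiment 1, where they were low, at -1.31. The genes whose deviations were most like the mean of the 9, among 6389 genes, were Dclk1, a microtubule-associated kinase, and Cd68, a lysosomal protein of macrophages and microglia, both with an r of 0.76, Pf4, a chemokine, with 0.74, Cdc42ep4 with 0.72 and Ddah1 with 0.71. Without the same pair of wells these values fell to 0.37, 0.53, 0.49, 0.56 and 0.51.

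**Figure D5:**
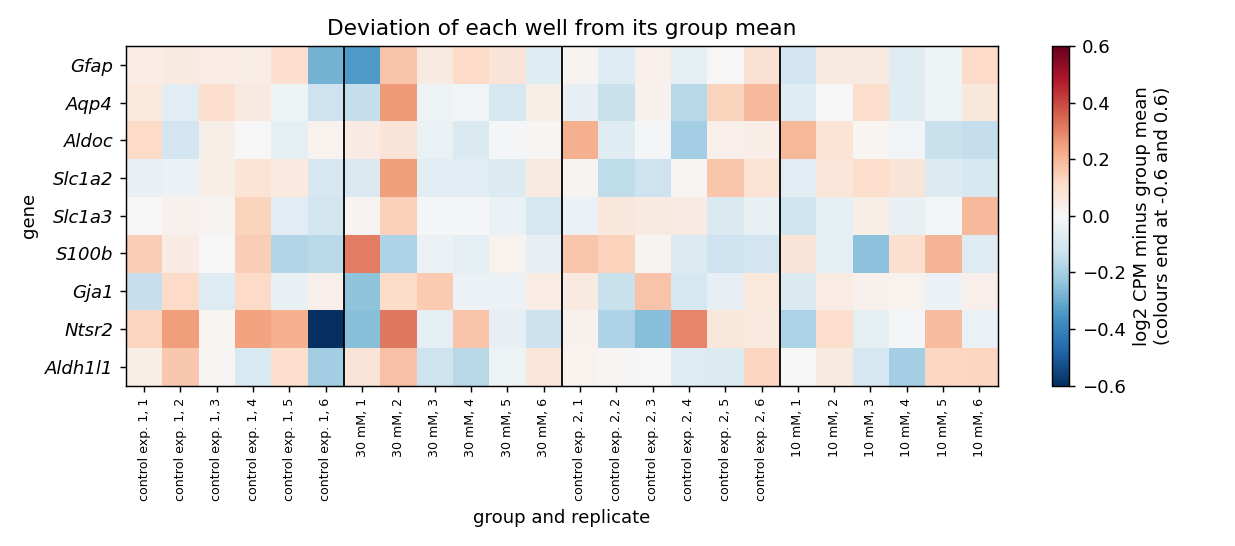
The deviation of each astrocyte gene from its group mean, in log2 CPM, is drawn for every well as colour. Replicate 2 at 30 mM is high and replicate 6 of the controls of experiment 1 is low for most of the genes, and S100b departs from the others in several wells.

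Markers of other cells moved with the groups, and their part in the results on the 9 genes was not tested. At 30 mM 7 of 11 tested oligodendrocyte genes rose and 0 fell. The summed level of the list ran from 6303 CPM through a median of 6932 CPM to 11227 CPM, the last in replicate 1. In the controls of experiment 1 the sum ran from 5147 CPM through 5495 CPM to 5794 CPM. Of 12 mural cell and fibroblast genes 0 rose and 8 fell, from a sum of 1146 to 1469 CPM to one of 479 to 617 CPM. Over all genes tested at 30 mM, 3.02% rose and 6.65% fell. At 10 mM 3 of 11 oligodendrocyte genes rose, and 3 of 11 mural cell and fibroblast genes fell. Over all genes tested at 10 mM, 0.391% rose and 0.266% fell. Mitochondrial transcripts took 4.09% ± 0.426 of counts at 30 mM and 3.32% ± 0.327 in its controls, against 2.05% ± 0.216 at 10 mM and 2.23% ± 0.110 in its controls (SD, n = 6).

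The 14 microglial genes summed to 336 ± 49.6 CPM at 30 mM and 331 ± 65.8 CPM in its controls (SD, n = 6), and to 3416 ± 190.1 CPM in the controls of experiment 2. All 12 tested microglial genes were lower in the controls of experiment 1 than in those of experiment 2, beside the control differences of the 9 genes. Over all genes tested between the control groups, 22.3% were lower. At 30 mM 1 of 9 tested microglial genes rose and 0 fell, 0 of 12 oligodendrocyte precursor genes rose and 1 fell, 0 of 7 neuronal genes rose and 1 fell, 0 of 5 ependymal genes rose and 1 fell, and 1 of 6 neural stem cell genes rose and 1 fell. Over all genes tested at 30 mM, 3.02% rose and 6.65% fell. The 8 endothelial genes summed to 87.8 ± 13.4 CPM at 30 mM and 88.9 ± 8.35 CPM in its controls (SD, n = 6). The endothelial junction gene Cldn5 had 0 counts in every well of experiment 1, which allows up to 2.46 CPM in the shallowest of those wells.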

How the data were processed

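RNA of 24 wells was read by 3′ tag sequencing, and the authors deposited 1 table of raw counts per gene. Per the submitters' processing notes, reads were trimmed with cutadapt 1.18 and aligned with STAR, and the build was GRCm39. The counter, its annotation, use of strand and treatment of duplicates are not given in the sources used here. Symbols were matched by identifier for 52083 of 55359 genes. Groups and replicate numbers came from the labels.

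Counts were tested with edgeR 4.0.16 in R 4.3.3: TMM scaling, filterByExpr with a minimum of 10 counts, the quasi-likelihood test, and Benjamini-Hochberg adjustment over all genes tested. Wells of 1 dose and their controls made up each fit, the difference between doses used all 24 wells, and the control groups were also fitted alone. All 9 genes passed the filter in each fit. Alternatives used other scalings, no filter, DESeq2 1.42.0, limma 3.58.1 (voom), a joint fit, a replicate block, and each well left out. Total counts per well from 1184609 to 1817028 limit precision, and the biological coefficient of variation was 8.08% at 30 mM and 5.62% at 10 mM.

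The 9 genes and all lists were chosen with earlier results of these data known. From the other astrocyte lists, up to 4 genes that rose and 4 that fell were named per dose, by size of change, with a mean log2 CPM of at least 3. Glul, Sox9 and Vim were added after their values were seen. Genes most like the 9 were taken by Pearson r among genes with a mean log2 CPM of at least 5. Promoter windows came from RefSeq tables of GRCm38.p6, which is not the authors' build.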

Additional observations from a re-analysis of the deposited data

Results flagged for a closer look

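Over 36 series of 6 wells, 2 had a well that stood apart by Dixon's criterion, where chance gives about 1.8, or 1 in 20. Both came from replicate 6 of the controls of experiment 1. Gfap was at 1258 CPM there, and the other 5 control wells were at 1571 to 1642 CPM. Ntsr2 was at 16.3 CPM there, and the others were at 30.7 to 36.5 CPM.

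The response differed between the experiments, by the interaction test of edgeR, for Slc1a2 (0.61 on the log2 scale), Aqp4 (0.60), Gja1 (0.48) and Gfap (0.37), each with the larger change at 30 mM. Dose, experiment and batch cannot be told apart in these differences.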

How the results depend on the processing

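The count of the 9 genes that passed stayed at 6 or 7 at 30 mM, 0 at 10 mM, 3 to 5 for the difference between the doses and 7 or 8 between the control groups, under every alternative run. Slc1a3 passed at 30 mM with upper quartile scaling (0.17, edgeR adjusted p = 0.0296). No log2 change reversed among those that passed. Over all genes, the 89 calls at 10 mM became 21 in the joint fit of 24 wells and 37 to 95 when 1 well was left out, with 37 without control replicate 5 of experiment 2, 40 and 45 without ethanol replicates 2 and 4, and 57 and 46 without control replicates 4 and 6. The 481 calls for the difference between the doses became 329 to 759 when 1 well was left out, with 759 and 723 without replicates 1 and 2 at 30 mM. They became 987 without replicate 1 at 30 mM and control replicate 6 of experiment 1 together, an alternative chosen after seeing the data. The causes were not tested. With the replicate number as a block, 6, 0 and 4 of the 9 genes passed at 30 mM, at 10 mM and for the difference, and 1208, 68 and 461 of all genes. Same-numbered wells showed little common deviation, with r from -0.16 to 0.23. These values cannot show whether wells of the same number share an origin, which is not stated. No block was fitted between the control groups. Depth limits Ntsr2 most, with 20 counts in its lowest well.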
